A study of Mus musculus with 8 samples.

Results

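Short but strong H3K4me3 regions of the wild-type testis are regions that gathered much ChIP signal over little DNA in both wild-type libraries. They were chosen from the 16000 union regions that the merged lists of 4 libraries gave on chromosomes 1 to 19. A member covered from 501 to 999 bp in both wild-type libraries and had a score at or above the median score of the list in both, 88.2 in WT 66 and 80.9 in WT 74. Of the 12226 union regions present in both wild-type libraries, 13 met this rule. The score is the value that the authors' tool gave each region, with no stated scale, and was used only within its own list. The widths and scores in the wild-type libraries chose the members, so they are given as a description.

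Histone H3 trimethylated at lysine 4 (H3K4me3) was mapped by ChIP-seq in adult C57BL/6 mouse testes, taken whole. The series compared testes that were wild type for H3f3b (H3f3b WT/WT; libraries WT 66 and WT 74) with testes null for it (H3f3b null; libraries KO 67 and KO 73), and 1 region list per library was used. Its 4 input libraries were not analysed here. The labels do not state how the null allele was made, or whether each number is a separate animal, so any p-value speaks for these libraries and their spread, part or all of which may be technical. H3f3b is 1 of the genes that encode H3.3, the histone H3 variant placed into chromatin outside DNA replication. H3K4me3 is laid down by methyltransferases of the SET1 and MLL family, mostly at CpG-rich starts of active or poised genes. In ChIP-seq it usually forms a domain that spreads over several nucleosomes downstream of the start, so a wide region generally collects more reads than a narrow one. A whole testis holds germ cells of all stages together with somatic cells, and a bulk library cannot tell fewer cells with the mark apart from less mark per cell. Regions are given by their mm9 coordinates, counted from 1; gene starts and sequence in that build were not used here, so the regions carry no gene names and the tissue was not checked against marker genes.

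The WT 66 and WT 74 lists held 14078 and 14551 regions, and the KO 67 and KO 73 lists 10502 and 12497. The scores below 100 in a list were whole multiples of 1 step, within 0.055. KO 67 had the finest step, 0.325, followed by WT 66 with 0.874, WT 74 with 1.39 and KO 73 with 1.45. Should 1 step stand for 1 tag on a common scale, which no source states, KO 67 was 4.46 times as deep as KO 73, WT 66 was 1.66 times and WT 74 was 1.04 times as deep. The absolute depth is unknown.

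Score and width rose together in every list, and the short and strong regions lay at the corner where few regions fall. Among WT 66 regions of 800 to below 1000 bp, 21 of 1356 reached the score median of their list, 1.55%, against 279 of 1389, 20.1%, from 1000 to below 1200 bp. The same shares were 6.93% and 33.5% in WT 74. Per kilobase of covered length, the 13 regions had scores from 100.2 to 986.6 in WT 66, with a median of 124, where the list's median was 58.6. In WT 74 they ran from 85.97 to 1180, with a median of 119.9 against 58.04. In WT 66, 11 of the 13 lay in the top 10% of the list by score per kilobase, and 9 did in WT 74. Bounds on score and width together force a high score per kilobase, so these values restate the rule. By score itself the members were mostly moderate: the median member stood at the 58.3rd percentile of scores in WT 66 and at the 64.2nd in WT 74. Each of the 13 was a single unbroken region in both wild-type libraries.

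**Figure D1:**
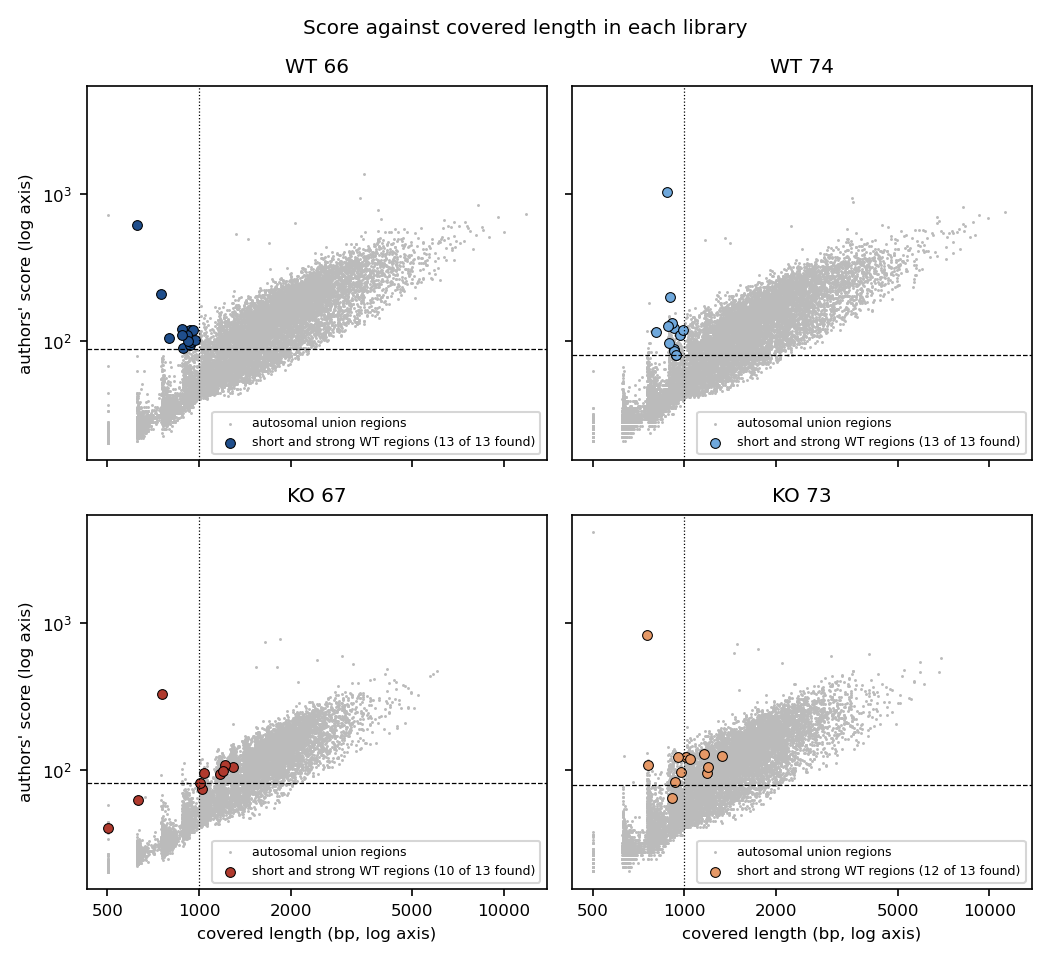
The authors' score (log axis) is plotted against covered length in bp (log axis) for each autosomal union region found in a library, with 1 panel per library; coloured points are the short and strong wild-type regions, the dashed line is the median score of that list and the dotted line marks 1000 bp. In both WT panels the region of chromosome 17 stands far above the cloud, the region of chromosome 19 stands between, and the other 11 lie near the crossing of the lines.

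Apart from the regions on chromosomes 17 and 19, the members sat close to the bounds that chose them, with scores from the 50.3rd to the 62.4th percentile in WT 66 and from the 49.9th to the 70th in WT 74. A chromosome 3 region (95558039 to 95559105) and the chromosome 11 region (101114764 to 101115851) both scored 80.9 in WT 74, exactly the median there. The next, on chromosome 5 from 140301987 to 140303185, lay 3 steps above the bound, with 85.0 in WT 74. Just outside, a chromosome 7 region (56044038 to 56045185) had widths of 972 and 929 bp in WT 66 and WT 74. It scored 85.6 and 78.1, which was 3 steps short in WT 66 and fewer in WT 74. Next to it were a region on chromosome 16 from 38346739 to 38347821, with 84.7 and 90.6, and one on chromosome 2 from 101518306 to 101519563, with 83.0 and 86.4. On the side of width, the member nearest the bound was on chromosome 13 from 93614310 to 93615561, with 988 bp in WT 74, followed by the first of chromosome 6, with 967 bp in WT 66. A region on chromosome 3 from 152376686 to 152377932 missed it with widths of 1007 and 754 bp in the WT 66 and WT 74 lists, and one on chromosome 15 from 52543664 to 52544875 with 1010 and 882 bp. The bounds thus ran between regions of like width and score.

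The region on chromosome 17 from 39985202 to 39986297 was short and strong in all 4 libraries. WT 66 and WT 74 covered 626 and 877 bp of it, KO 67 and KO 73 covered 753 and 751 bp, and so the genotypes overlapped in width. WT 66 and WT 74 gave it scores of 617.6 and 1034.5, and KO 67 and KO 73 gave 325.6 and 819.2. By score it stood in place 13, 1, 35 and 2 of the autosomal regions of WT 66, WT 74, KO 67 and KO 73. By score per kilobase it stood in place 2, 1, 2 and 2, so its density of listed signal was among the highest of each list in both genotypes. The inputs were not analysed, and how reads with several matches were treated is not known. The part of either in these ranks was not tested, so they are not read as a measure of H3K4me3 alone. A narrow region 3153 bp away, of 501 bp and with a score of 719, was listed in WT 66 alone, and the nearest region on the other side was 355001 bp away.

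The region on chromosome 19 from 61275411 to 61276304 was present in both wild-type libraries and absent from both null libraries. It covered 752 bp with a score of 207.9 in WT 66, and 894 bp with a score of 198 in WT 74. These scores stood at the 86.1st and 86.8th percentiles of their lists, and by score per kilobase the region took place 8 and 9 of the autosomal regions. Among the 1654 autosomal union regions that scored at least as high in both wild-type libraries, itself included, 2 were absent from both null libraries, 0.121%. The other, a chromosome 2 region (25142034 to 25147989), was broad, with 5342 and 5742 bp in the wild-type libraries. The cut was set at this region's own scores and its own absence was counted, so the 0.121% is a description. Width was not matched in that set. Of all regions in both wild-type libraries, 11.7% were absent from both null libraries. The share was 1.44% for regions strong but too wide for the rule in both, and 30.8% for those short but too weak in both. How unusual the absence is for a region this short and strong was therefore not tested. The neighbours of the chromosome 19 region, 22838 and 24653 bp away, had scores at or below the list median in both wild-type libraries and were found in all 4. The nearer one had widths of 889, 1222, 1054 and 944 bp in WT 66, WT 74, KO 67 and KO 73. Those of the farther one were 1615, 814, 1982 and 2386 bp. Among the 3, only the member was absent from the null lists, and the smallest scores that KO 67 and KO 73 listed were 20.2 and 20.3. Signal outside the listed regions and the inputs were not analysed, and how reads with several matches were treated is not known. The part of these in the absence was not tested, so it is an absence from the lists and not a measured loss of H3K4me3.

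On chromosome 6, 4 members lay within 85979 bp of each other, in 2 runs of evenly spaced H3K4me3 regions. With runs defined, after the lists had been seen, as union regions no more than 5000 bp apart, the autosomes held 2 runs of 8 or more regions, and both were these. The first ran from 47600755 to 47636366, with 9 regions of which 3 were members, and the second from 47689794 to 47723087, with 8 regions of which 1 was a member. The distance from one midpoint to the next was 4143 to 4480 bp in the first run, with a median of 4312 bp, and 4212 to 5610 bp in the second, with a median of 4380 bp. The gap between the runs was 53427 bp. Sequence was not used, and how reads with several matches were treated is not known. Whether the regions of a run share sequence, and so reads, was not tested, and they may not be separate domains. Chromosome 6 held 4.9% of the regions of both wild-type libraries and 4 of the 13 members.

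In these runs the null libraries differed from each other more than KO 73 differed from wild type. All 17 regions were found in WT 66, WT 74 and KO 73, and 8 were found in KO 67. Their summed length was 17216 and 17760 bp in the WT 66 and WT 74 lists, while KO 67 had 4944 bp and KO 73 had 17191 bp, so KO 67 stood alone and KO 73 lay close to WT 66. In each of the 17 regions KO 67 had the smallest covered length of the 4 libraries. In 4 of its 8 regions it had 501 bp, the narrowest width of any list. Ranked by score within its own list, the median region found stood at the 65.1st percentile of scores in WT 66, the 70th in WT 74, the 31.7th in KO 67 and the 70.3rd in KO 73. KO 67 also had the finest score step, and the part of depth, or of any other property of that library, in this result was not tested. The runs were noticed in these data, so their values are a description.

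**Figure D2:**
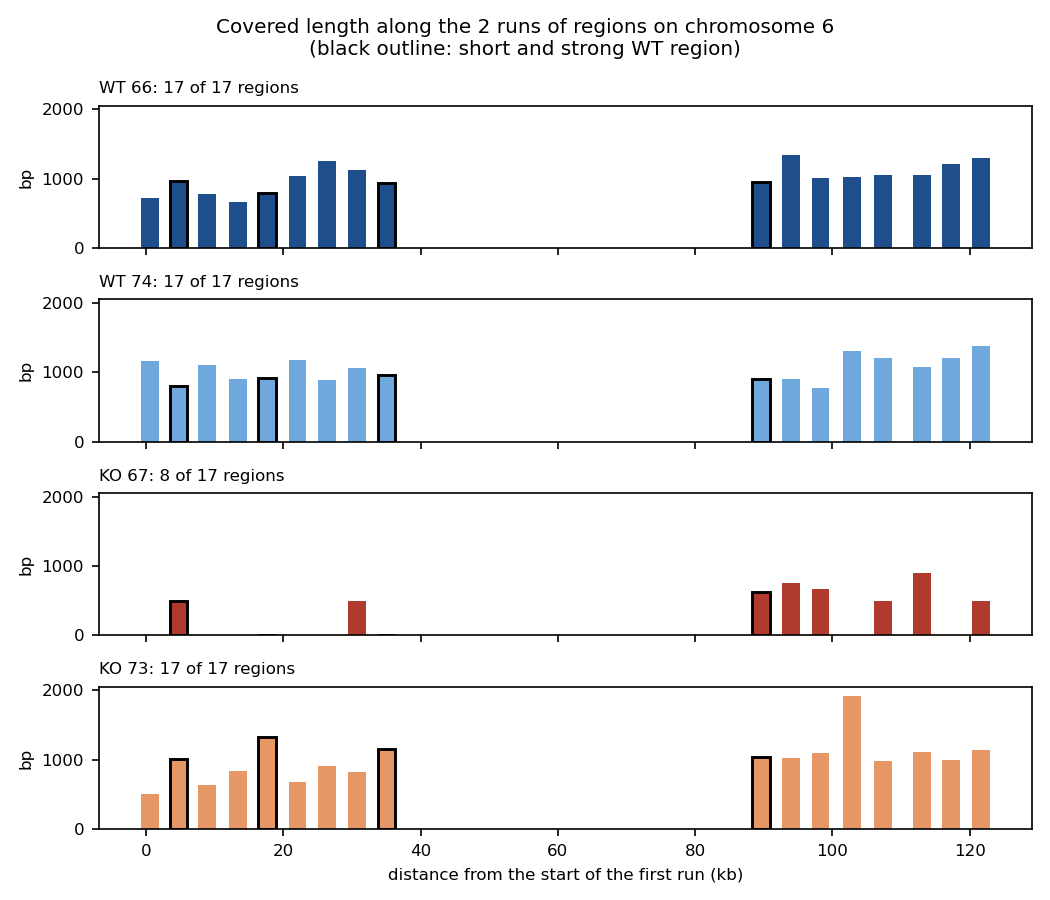
Covered length in bp of each region of the 2 runs on chromosome 6 is drawn as a bar at its distance in kb from the start of the first run, with 1 panel per library and a black outline around the 4 short and strong wild-type regions. WT 66, WT 74 and KO 73 have a bar at all 17 places, and KO 67 has bars at 8, of which 2 are in the first run.

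The 4 members of the runs also had their smallest covered length in KO 67, an absent region counting as no length. The first, from 47604877 to 47606076, had widths of 967, 805, 501 and 1012 bp in WT 66, WT 74, KO 67 and KO 73. The second, from 47617680 to 47619008, had 798, 922 and 1329 bp in WT 66, WT 74 and KO 73, and KO 67 had no region there. KO 67 also had none at the third, from 47635210 to 47636366, which covered 932, 964 and 1157 bp in WT 66, WT 74 and KO 73. The fourth, from 47689794 to 47690855, covered 954, 911, 630 and 1044 bp in WT 66, WT 74, KO 67 and KO 73. In all 4, KO 73 exceeded both wild-type values, while KO 67 was below them or absent. The rule capped the wild-type widths of these 4 and left those of KO 73 free, so the KO 73 direction is a description. Of the 17 regions of the runs, 7 had both null widths below both wild-type widths, and these 7 were not members.

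The 7 other members were found in both null libraries. The nearest union region lay from 6119 bp away, on chromosome 11, to 232392 bp away, on chromosome 13. On chromosome 3, the region from 95558039 to 95559105 covered 883, 941, 1022 and 912 bp in WT 66, WT 74, KO 67 and KO 73. The one from 108642500 to 108643826 covered 933, 927, 1288 and 1186 bp in that order and was wider in both null libraries than in either wild-type one. So was the chromosome 5 region, with 941 and 923 bp against 1040 and 1199 bp. On chromosome 9, the region from 46090672 to 46091841 covered 914, 881, 1170 and 932 bp. The other region of chromosome 9, from 104955197 to 104956462, covered 879, 893, 1216 and 950 bp. In both, KO 73 lay just above the wild-type values and KO 67 well above them. The chromosome 11 region covered 922, 938, 1007 and 974 bp. The chromosome 13 region covered 881, 988, 1197 and 757 bp in the same order, the null values lying on either side.

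**Figure D3:**
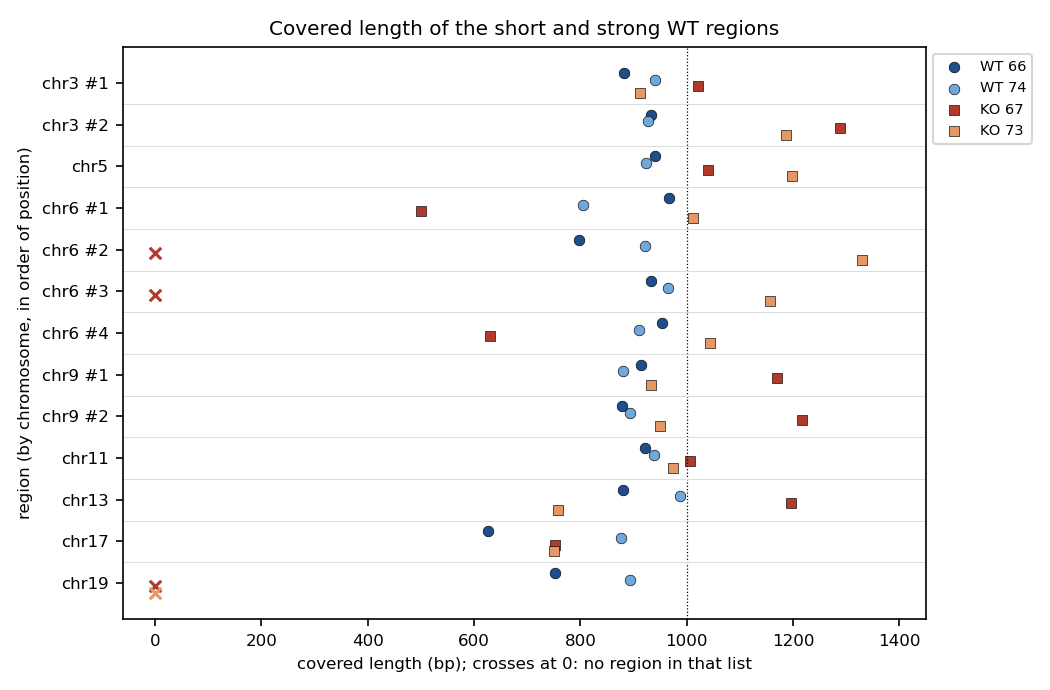
Covered length in bp of each of the 13 short and strong wild-type regions, by chromosome and in order of position, in WT 66 and WT 74 (circles) and KO 67 and KO 73 (squares), with crosses at 0 where a list has no region and a dotted line at 1000 bp. The circles lie between 626 and 988 bp, as the rule requires. All squares of KO 67 outside chromosomes 6, 17 and 19 lie above 1000 bp, and the rule left the null widths free.

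Over all 13 members, 10 were found in KO 67 and 12 in KO 73. That is 76.9% in KO 67 (95% exact binomial interval 46.2 to 94.96, which covers counting error only) and 92.3% in KO 73 (64.0 to 99.8). Of all regions in both wild-type libraries, 79.8% were found in KO 67 and 86.4% in KO 73. Both null libraries held 10 members, against 77.9% of all regions, 1 null library held 2, against 10.5%, and 1 member was in neither. These shares lay near those of all regions, and 13 members leave wide intervals. By the same bounds on width and score, 2141 regions were short and weak, and KO 67 held 49.98% of them (47.8 to 52.1) and KO 73 held 64.6% (62.6 to 66.7). Of the 6511 long and strong regions, 95.8% were found in KO 67 and 98.2% in KO 73. Of the 1005 long and weak ones, 70.2% and 80.5% were. In each of the 4 classes KO 67 held a smaller share than KO 73. Without the 4 members in the runs of chromosome 6, a comparison added after the values had been seen, 8 of 9 members were found in both null libraries, all but the chromosome 19 region.

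**Figure D4:**
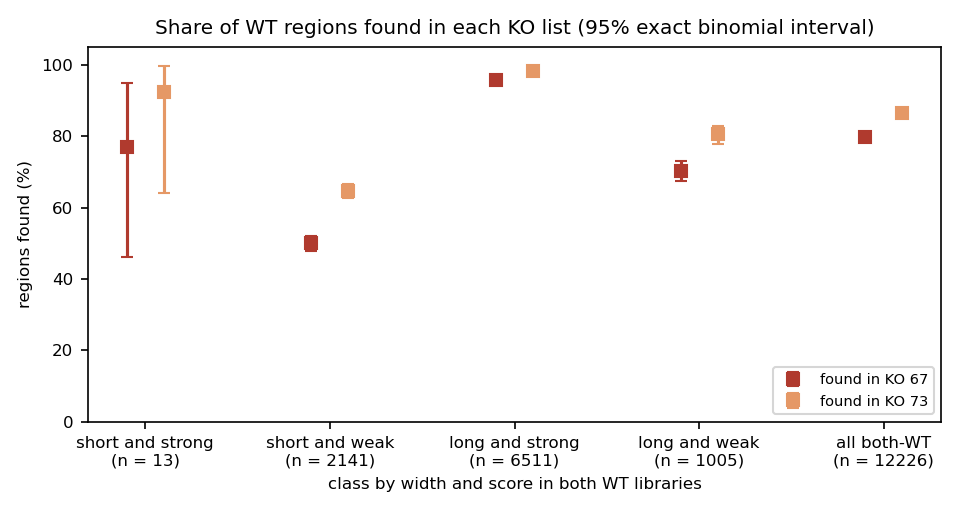
The percentage of wild-type regions found in KO 67 and KO 73, with 95% exact binomial intervals, is drawn for 4 classes set by width and score in both wild-type libraries and for all regions of both wild-type libraries. The intervals of the 13 short and strong regions span from 46.2% to 99.8% and overlap those of all regions, while short and weak regions lie lowest at 49.98% and 64.6%.

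In the null lists, which entered the choice only through the merging into union regions, the members found had a density of signal above the list median. All 10 found in KO 67 and all 12 found in KO 73 had a score per kilobase above the median of their list. The lowest stood at the 69th percentile in KO 67 and the 59th in KO 73, and the medians at the 81st and 89th. In the top 10% of the list by this measure were 3 of the 10 in KO 67 and 6 of the 12 in KO 73. By score alone, 6 of 10 in KO 67 and 11 of 12 in KO 73 reached the list median. These counts are set against the whole null list, which also holds regions absent from wild type. They were not made for other strong wild-type regions, so they show nothing particular to the members. Below 1000 bp were 3 of 10 in KO 67 and 6 of 12 in KO 73, and their median widths were 1031 bp (KO 67) and 993 bp (KO 73), against 914 and 922 bp in the wild-type lists. The rule held the wild-type widths below 1000 bp and left the null widths free, so these widths were not tested against each other.

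A library whose own widths and scores were not used in the choice gives widths that the rule did not bound. Of regions picked as short and strong in WT 66 alone, 26 in all with a median of 898.5 bp, 25 were found in WT 74, 21 in KO 67 and 24 in KO 73. WT 74 gave them a median of 941 bp, KO 67 gave 1135 bp and KO 73 gave 997.5 bp, so it was longer in each library that had not chosen them, and longest in the null ones. Of the 26, 65.4% were below 1000 bp in WT 74 (95% exact binomial interval 44.3 to 82.8), 15.4% in KO 67 (4.36 to 34.9) and 46.2% in KO 73 (26.6 to 66.6). For the 117 regions picked in WT 74 alone, with a median of 907 bp, WT 66 gave 1092.5 bp, KO 67 gave 1147.5 bp and KO 73 gave 998 bp. Here the other wild-type library gave a longer median than KO 73 did. Of these 117 regions, 25.6% were below 1000 bp in WT 66 (95% exact binomial interval 18.0 to 34.5), 13.7% in KO 67 (8.02 to 21.3) and 48.7% in KO 73 (39.4 to 58.1). The other wild-type library thus held the largest share of short regions when WT 66 chose, and lay between the null libraries when WT 74 chose. The 8 union regions picked in KO 67 alone had a median of 880 bp. WT 66 gave them 1156 bp, WT 74 gave 1090.5 bp and KO 73 gave 1070.5 bp. For the 195 picked in KO 73 alone the median was 909 bp. Their medians were 1176 bp in WT 66, 1068.5 bp in WT 74 and 1157 bp in KO 67. So the median was longer outside the picking library whichever library chose. The rule applied to the null libraries in place of the wild-type ones gave 2 regions, of which 1, on chromosome 17, was also a member, 7.69% of the 13 members and 50% of the 2. The other, a chromosome 8 region (87380485 to 87381860), covered 1171, 1376, 902 and 892 bp in WT 66, WT 74, KO 67 and KO 73.

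The number of short and strong regions in a list did not separate the genotypes. Counted in each list by itself, 26 autosomal regions of WT 66, 117 of WT 74, 8 of KO 67 and 197 of KO 73 were below 1000 bp and at or above the list's median score. The mean was 71.5 ± 64.3 in wild type and 102.5 ± 134 in the null testes (SD, n = 2 each; 2-sided exact permutation p = 1). The null values lay on both sides of the wild-type ones. As shares of the autosomal regions these were 0.190%, 0.828%, 0.0781% and 1.62%, and the exact permutation p of the shares was also 1, in a design that cannot go below 0.333. The KO minus WT difference of 31 regions became -63.5 without KO 73 and -14.5 without WT 66. The counts followed the order of the score steps, the list with the finest step, KO 67, having the fewest such regions and the one with the coarsest, KO 73, the most. The part of depth in this order was not tested.

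**Figure D5:**
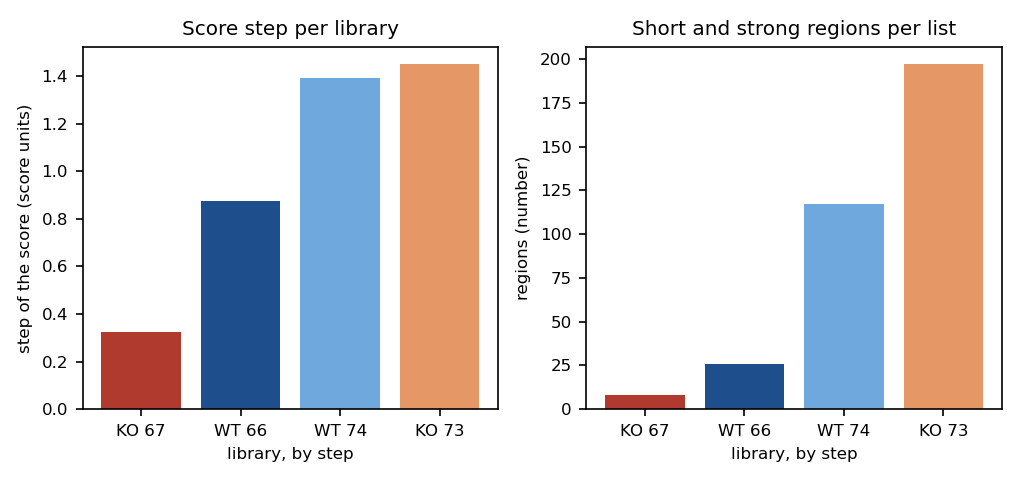
The left panel gives the step of the deposited scores in each library, in score units, and the right panel the number of autosomal regions below 1000 bp with a score at or above the list median, both with libraries ordered by step. Both rise from KO 67 (0.325 and 8) through WT 66 and WT 74 to KO 73 (1.45 and 197).

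The members found in all 4 libraries were part of a test of width change over all such regions. For them it used the wild-type widths that had chosen them, so a lack of calls does not show unchanged width. The test was limma on log2 covered length over the 9520 autosomal regions found in all 4 libraries, with Benjamini-Hochberg adjustment over all of them. It called 356 regions (3.74%), of which 355 (3.73%) were narrower and 1 (0.0105%) wider in the null testes; with library medians subtracted it called 78, and 0 without any 1 of WT 66, WT 74, KO 67 or KO 73. In the fit of all 4 libraries, none of the 10 members was called, and none had an unadjusted p under 0.05. Their log2 changes ran from -0.31 to 0.41, with a median of 0.09, where the median of all 9520 was -0.18. With library medians subtracted these medians were 0.31 for the members and 0.05 for all, and with quantile normalization they were 0.26 and 0.07. The largest rise was at the chromosome 3 region from 108642500 to 108643826, at 0.41 ± 0.17 (SE; limma adjusted p = 0.272). The lowest value was -0.31 ± 0.37, at the first member of the runs on chromosome 6 (limma adjusted p = 0.686), where the null libraries held 501 and 1012 bp. The region on chromosome 17 had a log2 change of 0.02 ± 0.24 (limma adjusted p = 0.974). Both null widths lay above both wild-type widths in 5 of the 10 members, against 4.66% of all regions, and below them in 0, against 47.6%. The 5 were the second region of chromosome 3 and those of chromosomes 5, 9 and 11. The rule capped the wild-type widths, and a region cannot be listed below 501 bp. The members' width changes, p-values and directions are therefore a description and no result about the null testes.

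The midpoints of the regions that make up a member were set side by side. A null region counts as the member only where it merges with it, which holds the midpoints close. The midpoints of a member in the 2 wild-type libraries were from 14 to 162.5 bp apart, with a median of 54.5 bp. The midpoint in a null library lay from 8 to 217 bp from the wild-type mean in KO 67, with a median of 117 bp, and from 9.75 to 187 bp in KO 73, with a median of 61.5 bp. The wild-type gap is between 2 libraries and the null gap is to a mean of 2. They are unlike measures, so their medians are not compared. In KO 67, 8 of the 10 regions reached past the outer wild-type edge on at least 1 side, 5 to the left and 5 to the right. In KO 73, 10 of 12 did, 7 to the left and 6 to the right, with no common side along the chromosome. The rule capped the wild-type widths and left the null widths free, which favours null edges outside the wild-type ones. These counts were not made for all regions, so they are a description and show no gain in the null testes. Merged over the 4 libraries, a member spanned from 894 to 1329 bp.

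Members in close company were those named above. The nearest union region was within 5000 bp of 5 of the 13 members, 38.5%, against 14.5% of all regions of both wild-type libraries. These 5 were the 4 in the runs of chromosome 6 and the chromosome 17 region. The median gap was 8535 bp for members and 25119 bp for all. The members fell on chromosomes 3, 5, 6, 9, 11, 13, 17 and 19, and the X and Y chromosomes held 0 regions that would have met the same bounds.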

How the data were processed

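H3K4me3 ChIP-seq of adult mouse testes was available as 1 region list for each of 4 libraries, 2 per genotype, on mm9. Bowtie and HOMER are named per the submitters' processing notes. No source used here gives their versions, settings or filters, whether inputs were used, or how reads with several matches were treated. The authors deposited BED tables with start, end and a score per region, so regions were called per library. A width is the end minus the start, and starts are printed counted from 1.

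Regions of chromosomes 1 to 19 that overlapped or touched were merged; a library held a union region if it overlapped by at least 1 bp. Covered length and score were summed per library, and score percentiles are over the whole list. The members, classes and tests were chosen with earlier results of these data known. All 13 members are named, with the regions nearest each bound. Log2 covered lengths, without a pseudocount, were fitted with limma 3.58.1 (variance trend; adjusted p of 0.05) in R 4.3.3, a step checked on simulated widths. Counts of each library were compared with an exact permutation test, 2-sided, over the 6 labelled assignments (Python 3.11.15, scipy 1.17.1). Intervals are 95% Clopper-Pearson and treat regions as independent. The absolute depth is unknown, so no interval was put on a score. Plans for gene starts, marker genes, CpG content and sequence, which needed mm9 gene positions, were not run. Alternatives covered score, width and overlap bounds, list length, scaling, the variance trend and each library left out.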

Additional observations from a re-analysis of the deposited data

How the results depend on the processing

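The share of members found in both null libraries was 76.9%. Under the 11 alternatives run, this share, or that in the 1 null library left, ranged from 50% to 94.0%. With a library left out it ran from 76.9% to 94.0%. All these values stayed inside the exact binomial interval of the 76.9%. That interval is wide, and membership itself was not stable: 13 members became 4 with the score bound at the 60th percentile, 56 at the 40th, 2 with the lowest 25% of each list dropped, 2 with lists cut to 10502 regions and 0 below 800 bp, which therefore gave no value. With medians over autosomal rows, added after seeing the data, there were 11. Without WT 66 the set was the 117 regions picked in WT 74, and without WT 74 the 26 picked in WT 66. The range thus joins unlike sets and measures, and sets of 2 allow few values, so it says little about stability. The KO minus WT difference in short and strong regions per list, 31, ranged from -63.5 to 125.5 with a library left out and was below 0 without WT 66 (-14.5) and without KO 73 (-63.5). Width calls over all regions fell from 356 to 78 with library medians subtracted, 51 with quantile normalization and 118 without a variance trend. They fell to 0 without WT 66, WT 74, KO 67 or KO 73, when 1 library stands for a genotype and is assumed to vary like the other, with 1070 to 1691 at an unadjusted p under 0.05. Of 79 values of the members' width changes under these alternatives, 0 were called (limma adjusted p from 0.178 to 0.999) and 7 changed sign, the cause of which was not tested. At the fourth member of the runs on chromosome 6, the log2 change of -0.20 was 0.026 with library medians subtracted and 0.027 with quantile normalization. With a library left out it ran from -0.57 to 0.16 there, from -0.82 to 0.20 at the first member of the runs, from -0.30 to 0.36 on chromosome 13 and from -0.22 to 0.26 on chromosome 17. No paired analysis was possible because the H3K4me3 libraries of the genotypes share no number.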
